A study of Mus musculus with 12 samples.

Results

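Expression of 10 genes that mark progenitors, dividing cells and immature neurons was compared between the cerebellum and the hippocampus of adult WT and *En2*-/- mice. The members were *Nes*, *Eomes*, *Ccnd2*, *Mki67*, *Top2a*, *Cdc20*, *Dcx*, *Sox4*, *Sox11* and *Igfbpl1*, all probes of which were taken by gene name, and they had 23 probes among the 41174 distinct probes of the array, which named 20724 genes in all. *En2* encodes the homeobox transcription factor engrailed-2, and *En2*-/- mice carry 2 inactivated copies of it in every cell. WT (En2WT in the labels) and *En2*-/- (En2KO) littermates were 3 to 5 months old, and the study used both sexes. The line, begun on a mixed background of 129Sv x C57BL/6 and outbred mice, had been crossed into C57BL/6 at least 5 times. Total RNA of the entire hippocampus and of the cerebellum from 3 mice per genotype was hybridised to one-colour Agilent arrays, with 3 arrays for each tissue and genotype and 12 arrays in all.

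In the adult rodent brain, new granule neurons are made in the dentate gyrus of the hippocampus, whereas granule neuron production in the cerebellum ends after the early postnatal period. Radial glia-like stem cells express the intermediate filament nestin (*Nes*), intermediate progenitors express the T-box factor Tbr2 (*Eomes*) and depend on cyclin D2 (*Ccnd2*), dividing cells express Ki-67 (*Mki67*), topoisomerase II alpha (*Top2a*) and the mitotic activator *Cdc20*, and newborn neurons express doublecortin (*Dcx*), the transcription factors *Sox4* and *Sox11*, and *Igfbpl1*, an insulin-like growth factor binding protein relative. None of these genes is restricted to newborn cells. *Eomes* also marks the unipolar brush cells of the adult cerebellum, vascular cells contain nestin, and Cdc20, which activates the anaphase-promoting complex in mitosis, also acts in postmitotic neurons. In RNA of a whole tissue, fewer cells of a type and less RNA per cell cannot be told apart.

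Between 62.3% and 73.0% of the spots of an array were well above background by the scanner software's flag, and no spot was saturated. The arrays lay on 3 slides, each holding 1 array of each group, and the replicate number was the slide number. The position on the slide was the same for all 3 arrays of a group, so position and group cannot be told apart. The tissues carried their labels' markers. All 10 markers of cerebellum were higher in the cerebellum and all 10 markers of hippocampus were higher in the hippocampus of WT mice (limma, adjusted p under 0.05). The probe of *En2* itself (chr5:28498468-28498528, mm9) read 14.06, 13.80 and 14.61 in WT cerebellum and 14.08, 14.81 and 14.50 in *En2*-/- cerebellum on the log2 scale. The groups overlapped. By the study's account this probe lies in the untranslated end of the gene, outside the deleted part, so it checks no genotype label. All intensities given here are log2 values after quantile normalization over the 12 arrays. Among the arrays of the hippocampus, *En2*-/- replicate 1 was the highest for 5 members and replicate 3 the lowest for 5, and among those of the cerebellum WT replicate 1 was the highest for 4 and replicate 3 the lowest for 4. A level is compared only between arrays and never between probes, and the brightest probe stands for its gene unless another is named.

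Of the 23 probes, 13 were well above background on all 12 arrays, 6 on some and 4 on none. *Nes*, *Ccnd2*, *Mki67*, *Cdc20*, *Dcx*, *Sox4* and *Sox11* were detected on every array through at least 1 probe. *Top2a* was detected least often. Its best probe was well above background on 2 of 3 WT and 1 of 3 *En2*-/- hippocampus arrays and on no cerebellum array, its other 2 probes were above background on none, and it entered no test. For *Dcx* only 1 of 3 probes (A_52_P244349) was above background, on all arrays.

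**Figure D1:**
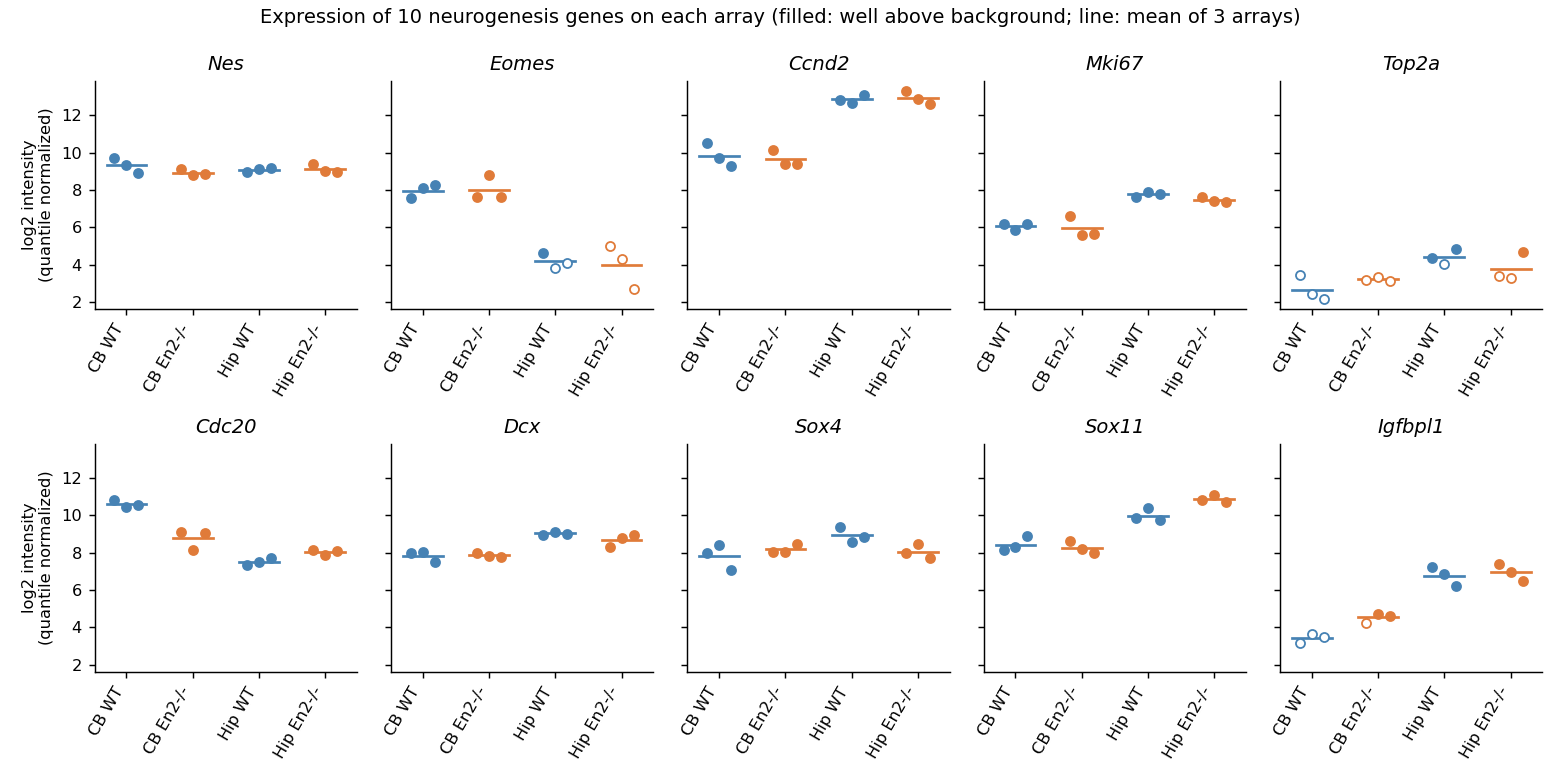
Log2 intensity of the brightest probe of each member (vertical axis, quantile normalized) on each of the 12 arrays, in cerebellum (CB) and hippocampus (Hip) of WT (blue) and En2-/- mice (orange). Filled points were well above background, open points were not, and lines are the means of 3 arrays. Cdc20 was highest on the 3 WT cerebellum arrays, at 10.46 to 10.82, and Ccnd2, Mki67, Sox11 and Igfbpl1 were higher in the hippocampus of both genotypes.

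The tissues differed in most of the members that could be tested. In WT mice 8 of 9 tested members passed limma between cerebellum and hippocampus, where 32.0% of the 15654 genes tested did so. The cerebellum was higher in 2 of them, *Eomes* and *Cdc20*, and lower in 6, *Ccnd2*, *Igfbpl1*, *Mki67*, *Sox11*, *Dcx* and *Sox4*, where 17.2% of genes were higher and 14.8% lower. The median difference of the 9 members was -1.19 on the log2 scale (cerebellum minus hippocampus), against 0.07 over all genes tested. In *En2*-/- mice 7 of 9 passed, where 26.8% of all genes did, 12.5% as higher and 14.3% as lower in the cerebellum. These 7 were the members of WT mice other than *Sox4*, in the same directions, and 19.2% of genes passed so in both genotypes. *Eomes* and *Igfbpl1* met the filter on dim probes only through the tissue in which they were bright, and of the other 7 members 6 passed in WT and 5 in *En2*-/- mice. In the deposited log2 table, which left both of them untested, 5 of those 7 passed in WT mice (*Ccnd2*, *Cdc20*, *Dcx*, *Mki67* and *Sox11*) and 4 in *En2*-/- mice (not *Dcx*), and over all genes 4831 were higher and 1318 lower in WT cerebellum, against 2695 and 2312.

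Among the progenitor genes, *Nes* had nearly the same level in both tissues. It read 9.71, 9.36 and 8.92 in WT cerebellum and 8.98, 9.10 and 9.17 in WT hippocampus. The groups overlapped, and the difference of 0.25 (SE 0.21, 95% interval -0.21 to 0.70) did not pass (limma adjusted p = 0.403). *Eomes* read 7.55, 8.10 and 8.26 in WT cerebellum and 4.63, 3.83 and 4.11 in WT hippocampus, where only the brightest of these was well above background. Its level was higher in the cerebellum by 3.78 (SE 0.50, limma adjusted p = 0.000124) in WT mice and by 4.01 (SE 0.50, limma adjusted p = 9.51e-05) in *En2*-/- mice. *Eomes* entered the test only through the cerebellum, where it is brighter, so these p are no support for the difference. Since no *En2*-/- hippocampus array was above background, the fold there is only a bound, at least 9.77-fold. For such bounds the dim group's arrays enter at the level of the dimmest detected probe of that array, or at the probe's own signal where that is brighter. The other genes listed for unipolar brush cells went the same way, with 4 of 4 tested genes higher in WT cerebellum. They included *Plcb4*, a phospholipase gene that Purkinje cells also express, which was higher by 3.24 (SE 0.27, limma adjusted p = 2.3e-06).

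*Ccnd2*, a cyclin of the G1 phase, was in excess in the hippocampus. It read 12.81, 12.64 and 13.10 in WT hippocampus and 10.50, 9.73 and 9.29 in WT cerebellum, 8.05-fold lower (log2 difference -3.01, SE 0.31, limma adjusted p = 1.7e-05). The groups were far apart, and the other 2 *Ccnd2* probes gave -2.76 and -2.41. *Mki67*, present in all phases of the active cycle, read 7.60, 7.87 and 7.80 in WT hippocampus against 6.18, 5.83 and 6.16 in WT cerebellum (-1.70, SE 0.25, limma adjusted p = 0.00029). Its other probe (A_51_P253808) was above background only on the 3 WT hippocampus arrays and was there at least 3.45-fold higher. *Top2a*, not tested, read 4.33, 4.03 and 4.82 in WT hippocampus and 3.42, 2.40 and 2.17 in WT cerebellum, at least 1.73-fold lower with 2 of the 3 hippocampus arrays above background.

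*Cdc20* ran against the other cell cycle members. It read 10.82, 10.46 and 10.55 in WT cerebellum and 7.36, 7.50 and 7.69 in WT hippocampus. All cerebellum arrays lay above all hippocampus arrays, 8.55-fold by the means (log2 difference 3.10, SE 0.25, limma adjusted p = 1.75e-06). In *En2*-/- mice the excess was 0.74 (SE 0.25, limma adjusted p = 0.0425), a call that was lost with any of 9 arrays left out (adjusted p between 0.0503 and 0.162). Among the other genes of G2 and mitosis, 26 of 30 listed genes could be tested in WT mice. Of these, 1 was higher in the cerebellum and 10 were lower, against 17.2% and 14.8% of all genes, with a median of -0.36. *Ccnb2*, a mitotic cyclin, was the gene that was higher, by 0.79 (SE 0.25, limma adjusted p = 0.0287), while *Melk*, which encodes a mitotic kinase, was not well above background in WT cerebellum and was there at least 2.81-fold lower. *Melk* entered the test only through the hippocampus. In the deposited log2 table, in which the median of all genes was higher in the cerebellum, 5 of these genes were higher and 2 lower, with a median of 0.10. Of the G1 and S phase genes 21 were tested, 8 were higher in WT cerebellum and 5 lower. *Cdt1*, which licenses replication origins, was higher by 2.18 (SE 0.25, limma adjusted p = 3.79e-05), and the kinase gene *Cdk6* was lower (-1.77, SE 0.20, limma adjusted p = 3.17e-05).

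The 4 genes of immature neurons were all lower in WT cerebellum. *Dcx*, which encodes a microtubule protein of migrating neurons, read 8.93, 9.13 and 9.02 in WT hippocampus and 8.00, 8.01 and 7.51 in WT cerebellum (difference -1.19, SE 0.20, limma adjusted p = 0.00078). *Sox11* read 9.83, 10.37 and 9.74 against 8.13, 8.30 and 8.88 (-1.54, SE 0.25, limma adjusted p = 0.000549), and its 4 other tested probes gave differences from -1.98 to -1.55. *Igfbpl1* was above background on all 6 hippocampus arrays, at 7.22, 6.87 and 6.22 in WT mice, and on none of the 3 WT cerebellum arrays, where it was at least 8.06-fold lower (limma adjusted p = 3.85e-06). Its other probe, A_52_P633353, was at least 4.87-fold lower there. *Igfbpl1* entered the test only through the hippocampus, where it is brighter, so its p is no support for the difference. *Sox4* read 9.40, 8.56 and 8.83 in WT hippocampus and 8.00, 8.43 and 7.08 in WT cerebellum. Its difference of -1.09 (SE 0.34, limma adjusted p = 0.0274) did not pass without the third WT cerebellum array (adjusted p = 0.0906) or without the WT hippocampus array of replicate 1 (adjusted p = 0.114). In *En2*-/- mice *Igfbpl1* (-2.41), *Sox11* (-2.61) and *Dcx* (-0.81, SE 0.20, limma adjusted p = 0.0109) were lower in the cerebellum as well, *Dcx* not without the *En2*-/- hippocampus array of replicate 3 (adjusted p = 0.0550), and *Sox4* differed by 0.13 (95% interval -0.61 to 0.86). The deposited log2 table gave -0.62 for *Dcx* and -0.71 for *Mki67* in WT mice, and averaging *Dcx* with its dim probes gave -0.33 (limma adjusted p = 0.206). With background correction by normexp, which compresses dim signals, *Igfbpl1* was -1.17 and *Eomes* 1.67 in WT mice, both still passing.

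Genes listed for neuroblasts and immature neurons did not share 1 direction. Of 19 tested, 6 were higher and 3 lower in WT cerebellum, against 17.2% and 14.8% of all genes, with a median of 0.43. *Bcl11b*, a transcription factor of hippocampal granule and other projection neurons, was lower in the cerebellum (-4.70, SE 0.44, limma adjusted p = 6.62e-06) and so was *Prox1*, the factor that specifies dentate granule neurons (-2.44, SE 0.20, limma adjusted p = 2.11e-06). *Nrep* was higher by 2.90 (SE 0.37, limma adjusted p = 7.96e-05) and *Calb2*, the calcium buffer calretinin, by 2.86 (SE 0.45, limma adjusted p = 0.000414). Of 18 stem and progenitor genes, 4 were higher and 7 lower. *Pax6* was higher by 2.77 (SE 0.19, limma adjusted p = 5e-07), and *Tfap2c*, not above background in WT cerebellum, was at least 4.06-fold lower and likewise entered the test only through the hippocampus. *Dlx1*, *Dlx2*, *Dlx5* and *Sp8*, transcription factors of interneuron lineages, were above background on every WT hippocampus array and on no WT cerebellum array, with bounds from 8.19-fold to 70.0-fold. The 6 microglia genes were all lower in WT cerebellum too (median -1.30), and their part in the differences of the members was not tested.

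**Figure D2:**
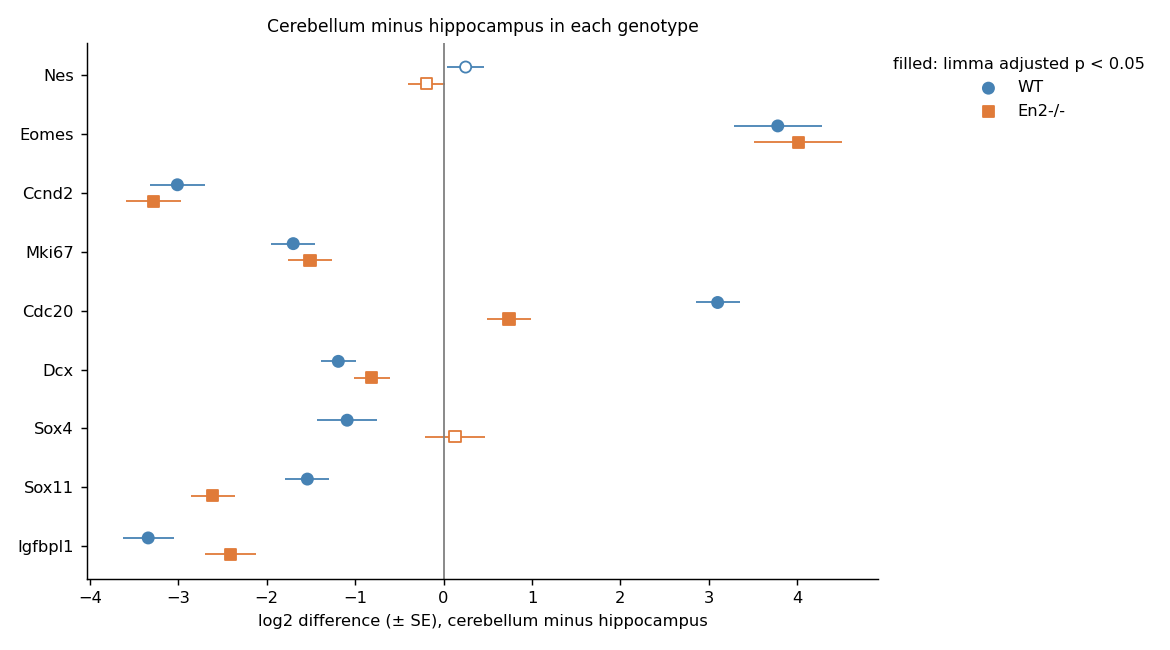
Log2 difference between cerebellum and hippocampus (horizontal axis, ± SE of the limma fit) for the 9 tested members in WT (blue circles) and En2-/- mice (orange squares). Filled symbols passed limma at an adjusted p under 0.05. Cdc20 lay at 3.10 in WT and at 0.74 in En2-/- mice, and Sox4 at -1.09 and 0.13.

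The tissue difference of *Cdc20* itself depended on genotype. The genotype effect in the cerebellum minus that in the hippocampus was -2.36 for *Cdc20* (SE 0.35, limma adjusted p = 0.0253), the only member to pass, where 0.141% of genes did. On slides 1, 2 and 3 the excess of the cerebellum was 3.46, 2.96 and 2.87 in WT mice and 0.98, 0.28 and 0.97 in *En2*-/- mice, so that it was smaller in *En2*-/- mice on all 3 slides. The call was lost with any of 7 arrays left out, at adjusted p between 0.0529 and 0.0694 and differences from -2.50 to -2.25. *Sox4* (1.22, SE 0.48, limma adjusted p = 0.373) and *Sox11* (-1.07, SE 0.35, limma adjusted p = 0.336) came next among the members that did not pass. The other tested *Sox11* probes gave -0.74, -0.53, -0.41 and 0.40, and none passed.

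In the cerebellum, *Cdc20* was the only member called between genotypes. It fell from 10.82, 10.46 and 10.55 on the WT arrays to 9.12, 8.15 and 9.07 on the *En2*-/- arrays. Every *En2*-/- array lay below every WT array. The means were 10.61 ± 0.19 and 8.78 ± 0.55 (SD, n = 3 each), a 3.56-fold decrease (log2 difference -1.83, SE 0.29, 95% interval -2.50 to -1.17). The rank product, which combines the ranks of a gene's *En2*-/- to WT ratios over all 9 array pairs and sets them against 100 permutations, gave P = 1.81e-05 against the limit of 0.01 used by the study. Of the 8 members tested, 1 was called, where 4.98% of the 15437 genes tested were called, 2.64% as lower. By limma *Cdc20* passed as well (adjusted p = 0.0384), where 0.635% of genes did. By the brightest probe of each gene, it was also the only 1 of the 8 tested members whose groups did not overlap, where 14.8% of genes did not. The groups of *Igfbpl1*, which was too dim to be tested there, did not overlap either. *Cdc20* was the only tested member with an unadjusted limma p under 0.05, where 9.25% of genes had one.

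On slides 1, 2 and 3 the *Cdc20* difference was -1.71, -2.31 and -1.48. The rank product called it in every setting tried, including each array left out in turn, with differences between -2.00 and -1.52. The limma call was lost when any cerebellum array other than that of *En2*-/- replicate 2 was left out (adjusted p between 0.0674 and 0.141), without a filter on dim probes (0.171) and when each probe was tested on its own. A single probe measures the gene (A_51_P361022, chr4:118105536-118105595, minus strand, mm9). The exon it lies in was not analysed here.

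By their brightest probes, the other members tested in the cerebellum did not differ beyond the spread of the arrays. *Ccnd2* differed by -0.20 (95% interval -0.99 to 0.59), *Mki67* by -0.12 (-0.81 to 0.57) and *Eomes* by 0.05 (-0.77 to 0.86). *Nes* read 9.71, 9.36 and 8.92 in WT and 9.10, 8.80 and 8.85 in *En2*-/- mice, a difference of -0.41 (-0.96 to 0.14). Among the immature neuron genes, *Dcx* differed by 0.02 (-0.46 to 0.50), *Sox11* by -0.16 (-0.77 to 0.44) and *Sox4* by 0.34 (-0.44 to 1.12). These intervals leave room for changes of up to about 1 log2 unit in *Ccnd2*, *Nes* and *Sox4*, and none of them shows that a gene did not change. The other tested *Sox11* probes gave 0.90 (A_52_P178018), 0.65 (A_51_P283516), 0.57 (A_52_P114703) and -0.22 (A_51_P297434). Of these, A_52_P178018 was called by the rank product, none passed limma, and the groups of A_52_P114703 did not overlap. *Igfbpl1* was not tested. It was above background on 2 of 3 *En2*-/- arrays (4.25, 4.73 and 4.60, the lowest not above background) and on none of the WT arrays (3.16, 3.65 and 3.49), at least 1.70-fold higher. Its other probe, A_52_P633353, was also above background on 2 of 3 *En2*-/- arrays (1.87, 4.50 and 4.17, the lowest not above background) and on none of the WT arrays (1.89, 1.91 and 1.89), but the mean of its *En2*-/- arrays did not exceed the limit of detection, so no fold can be given.

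**Figure D3:**
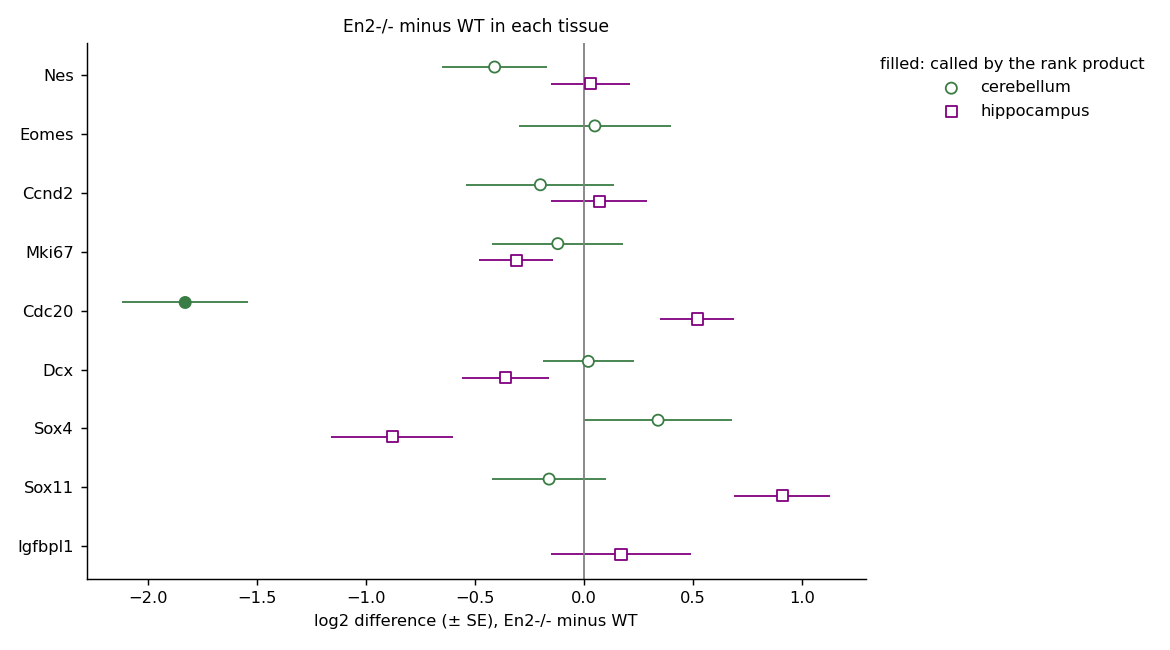
Log2 difference between En2-/- and WT mice (horizontal axis, ± SE of the limma fit) for the members tested in the cerebellum (green circles) and the hippocampus (purple squares). Filled symbols were called by the rank product, which was Cdc20 in the cerebellum alone, at -1.83. Its difference in the hippocampus was 0.52.

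The other genes of G2 and mitosis mostly had lower means in *En2*-/- cerebellum, but few were called. Of 24 tested, 18 had a lower mean and 6 a higher one, with a median difference of -0.25 against -0.03 over all genes. The rank product called 3 as lower, limma passed 0, and 3 had an unadjusted limma p under 0.05. Over all genes tested these shares were 2.64%, 0.635% and 9.25%. The rank product's 3 were *Bub1* (-0.91, SE 0.39), *Bub1b* (-0.77, SE 0.48) and the mitotic kinase gene *Pbk* (-0.73, SE 0.63). *Bub1* and *Bub1b* encode checkpoint kinases that restrain Cdc20. *Pbk* was dim, with means of 3.48 in *En2*-/- and 4.21 in WT mice. The groups of all 3 called genes overlapped, and only *Bub1* of them had an unadjusted limma p under 0.05 (limma adjusted p = 0.532). With background correction by normexp 1 of these genes was called, and with the replicate block none. Among 20 genes of G1 and S phase, 14 had a lower mean, with a median of -0.14, and the rank product called 2 as lower. These were *Ccnd1*, cyclin D1 (-1.24, SE 0.21, limma adjusted p = 0.0556), and *Tyms*, thymidylate synthase (-1.02, SE 0.32, limma adjusted p = 0.35).

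The lists of stem cell and immature neuron genes held no such calls. Of 17 stem and progenitor genes and 19 neuroblast and immature neuron genes tested in the cerebellum, the rank product and limma each called 0, and 2 and 4 had an unadjusted limma p under 0.05. Their medians were -0.07 and 0.09. Over all genes 4.98% were called by the rank product, 0.635% passed limma and 9.25% had an unadjusted limma p under 0.05.

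**Figure D4:**
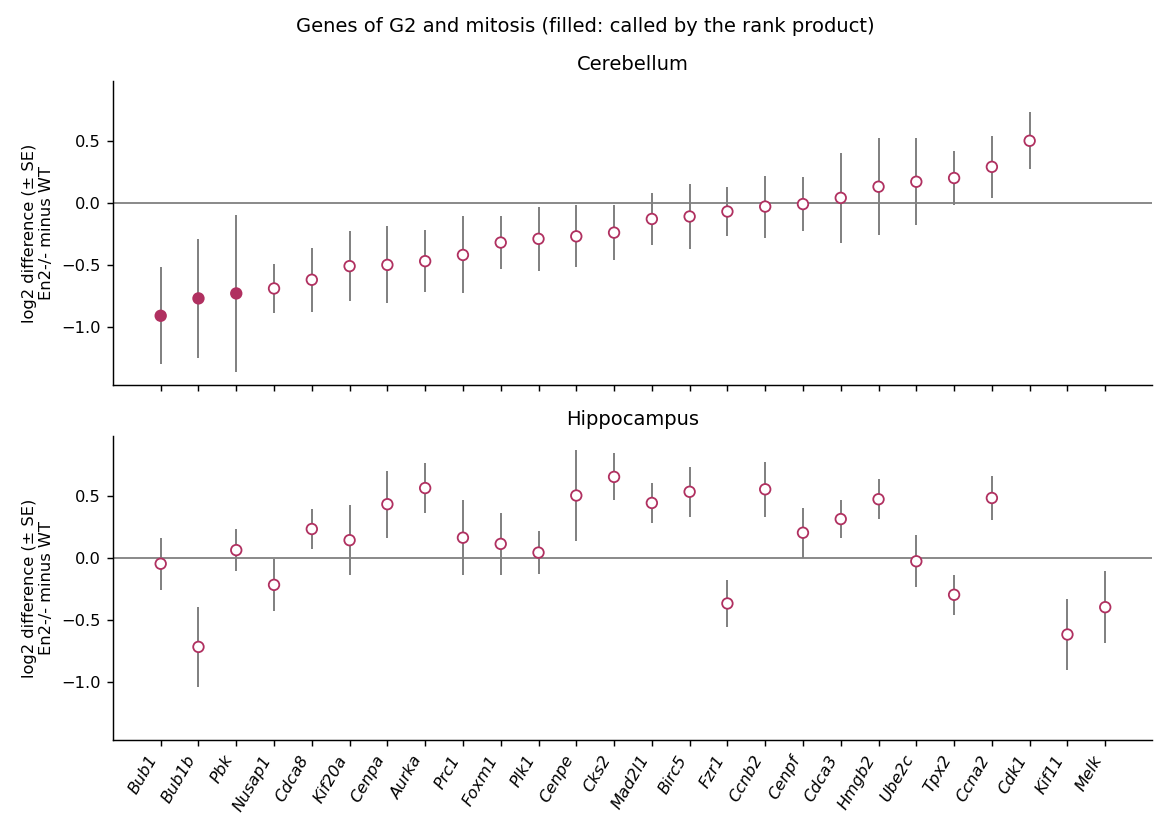
Log2 difference between En2-/- and WT mice (vertical axis, ± SE of the limma fit) for genes of G2 and mitosis other than the members, in the cerebellum (top) and the hippocampus (bottom), with genes ordered by the cerebellum difference. Filled points were called by the rank product, which were Bub1, Bub1b and Pbk in the cerebellum and none in the hippocampus.

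Markers of choroid plexus, the epithelium that makes cerebrospinal fluid, moved with genotype in the same cerebellum samples. Each of the 8 genes was higher on average in *En2*-/- mice, and the rank product called 3, *Otx2* (0.90, SE 0.26), *Ttr* (0.89, SE 0.25) and *Aqp1* (0.87, SE 0.26). All were detected on every array, and the log2 of their summed intensity was 14.67 to 15.00 in *En2*-/- and 14.30 to 14.52 in WT cerebellum. *Igf2*, of the meninges list, was called higher as well (0.99, SE 0.26). Markers of the cerebellum itself had a median of -0.19, with 7 of 10 lower and none called by the rank product or limma (1 had an unadjusted p under 0.05). Of 10 endothelial and mural genes, all detected on every array, 8 were lower on average (median -0.33), none was called by the rank product or limma and 3 had an unadjusted limma p under 0.05. Their summed values were 14.58 to 14.88 in *En2*-/- and 14.89 to 15.04 in WT cerebellum and did not overlap. Of 8 hippocampus markers tested 6 were higher on average (median 0.34) and *Lhx2* was called (0.82, SE 0.26), while the summed values overlapped, at 12.92 to 13.25 and 13.07 to 13.23. Over all genes 4.98% were called by the rank product. The part of these cell types in the *Cdc20* difference was not tested.

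The promoters of *Cdc20*, *Mki67* and *Top2a* are shown for their cell cycle motifs. Promoters of many G2 and mitosis genes carry CCAAT boxes, bound by NF-Y, and the cell cycle homology region (CHR), TTTGAA, bound by the DREAM and MuvB complexes. The stretches printed here are the 250 bases before the annotated start (RefSeq, GRCm38.p6), 5′ to 3′ along the gene, with CCAAT and TTTGAA on either strand in capitals.
Cdc20: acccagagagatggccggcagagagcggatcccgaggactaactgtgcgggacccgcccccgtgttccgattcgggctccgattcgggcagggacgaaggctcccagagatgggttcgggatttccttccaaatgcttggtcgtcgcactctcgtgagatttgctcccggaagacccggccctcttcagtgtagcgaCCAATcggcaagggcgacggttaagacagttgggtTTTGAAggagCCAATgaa
Mki67: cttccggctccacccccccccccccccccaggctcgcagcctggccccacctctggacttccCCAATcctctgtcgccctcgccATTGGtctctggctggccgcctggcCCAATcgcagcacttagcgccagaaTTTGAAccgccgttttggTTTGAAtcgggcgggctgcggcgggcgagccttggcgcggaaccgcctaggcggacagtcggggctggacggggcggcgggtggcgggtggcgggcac
Top2a: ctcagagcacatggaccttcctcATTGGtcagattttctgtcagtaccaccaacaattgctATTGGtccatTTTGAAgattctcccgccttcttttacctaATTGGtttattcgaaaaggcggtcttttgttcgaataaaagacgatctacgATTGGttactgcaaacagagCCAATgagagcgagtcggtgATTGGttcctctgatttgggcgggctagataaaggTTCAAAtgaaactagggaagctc
The *Cdc20* promoter (chr4:118437344-118437593, minus strand) held 2 CCAAT boxes, beginning 53 and 8 bases before the start, and 1 CHR at 18 bases. The *Mki67* promoter (chr7:135716380-135716629, minus strand) held 3 CCAAT boxes and 2 CHR, and that of *Top2a* (chr11:99024190-99024439, minus strand) held 6 and 2. The search covered both strands, and the 2 motifs do not overlap in these stretches. Both motifs together occurred in 4 of the 9 promoters found for 8 members, the other being that of *Sox11*, in 6 of 24 promoters of the G2 and mitosis list, and in 5.55% of all 32851 promoters of that length. CCAAT was in 33.8% and TTTGAA in 16.0% of all promoters, those with both included. *Cdc20* and *Mki67* both held the 2 motifs, and whether the motifs bear on the levels of these genes was not tested. A match describes the sequence and says nothing of binding.

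In the hippocampus no member was called between genotypes. Of 8 members tested, 0 passed the study's limit on the permutation P of the rank product, 0.005, and 0 passed limma, where 4.16% and 1.33% of the 14845 genes tested did, and 3 had an unadjusted limma p under 0.05, where 19.5% of genes did. The groups did not overlap for 4 members, *Sox11* and *Cdc20*, higher in *En2*-/- mice, and *Sox4* and *Dcx*, lower. Over all genes 26.4% did not overlap, 15.2% higher and 11.3% lower.

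*Sox11* and *Sox4*, which encode related SoxC factors and act together in newborn neurons, had the largest differences of the members there, in opposite directions. *Sox11* read 9.83, 10.37 and 9.74 in WT and 10.83, 11.10 and 10.73 in *En2*-/- hippocampus (difference 0.91, SE 0.22, 95% interval 0.40 to 1.41, limma adjusted p = 0.101, rank product permutation P = 0.00618). *Sox4* read 9.40, 8.56 and 8.83 in WT and 7.98, 8.45 and 7.72 in *En2*-/- hippocampus (difference -0.88, SE 0.28, 95% interval -1.52 to -0.24, limma adjusted p = 0.159, rank product permutation P = 0.00692). All *En2*-/- arrays lay above the WT arrays for *Sox11* and below them for *Sox4*. *Sox4* has 1 probe, and on slides 1, 2 and 3 its difference was -1.42, -0.11 and -1.11.

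The 6 probes of *Sox11* did not give 1 answer. In a fit of every named probe on its own, 2 *Sox11* probes passed limma in the hippocampus, where 2.13% of the 23637 probes tested did. Probe A_52_P178018 (chr12:28025383-28025442, minus strand, mm9) read 7.58, 7.72 and 7.40 in WT and 8.86, 9.43 and 8.70 in *En2*-/- mice, and rose by 1.43 (SE 0.23, limma adjusted p = 0.0282). Probe A_52_P114703, with no position in the files, rose by 1.31 (SE 0.22, limma adjusted p = 0.0318), and its groups were likewise apart. Both were called by the rank product, which called 4.25% of probes. The brightest probe, A_52_P160955 (chr12:28019541-28019600), gave 0.91 with an adjusted p of 0.0845 in that limma fit. Probes A_51_P283516 (chr12:28022857-28022916) and A_51_P297434 (chr12:28020063-28020122) gave 0.25 (95% interval -0.37 to 0.88) and 0.19 (-0.40 to 0.77), both below the interval of A_52_P178018, 0.90 to 1.96. The sixth probe, A_52_P608516 (chr12:28026950-28027009), was above background on no *En2*-/- and 2 of 3 WT hippocampus arrays and was not tested. The probes were not tested against each other. In the cerebellum A_52_P178018 alone was called, by the rank product (0.90, SE 0.41, permutation P = 0.0074, limma adjusted p = 0.651), where 4.41% of probes were.

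**Figure D5:**
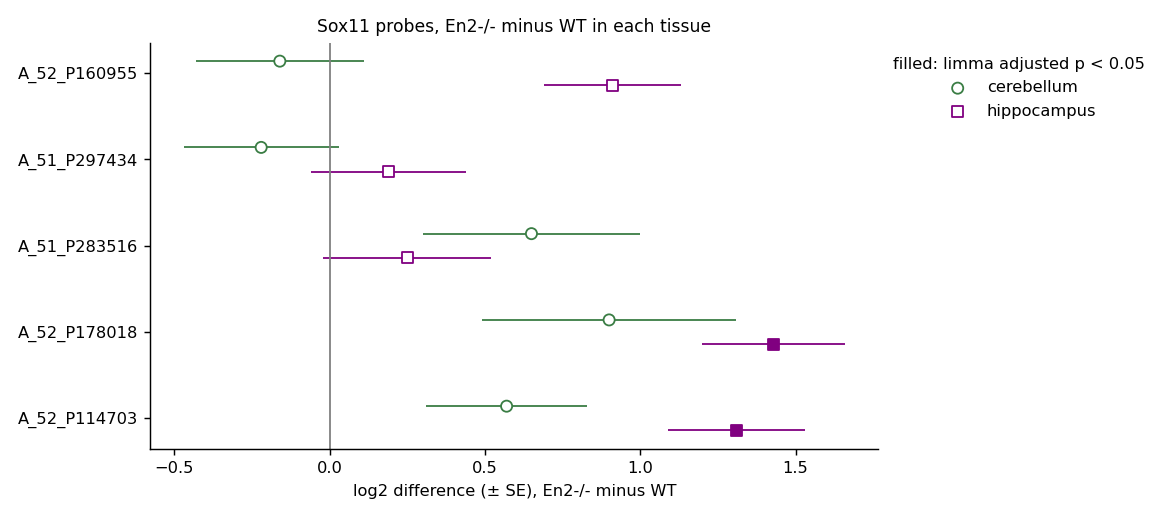
Log2 difference between En2-/- and WT mice (horizontal axis, ± SE of the limma fit over every named probe) for the 5 Sox11 probes tested, in the cerebellum (green circles) and the hippocampus (purple squares). Probes are ordered by rising genomic position from the top, with the probe that has no position at the bottom. The gene lies on the minus strand, so this order runs against its direction. Filled symbols passed limma, which were the 2 hippocampus values at 1.43 and 1.31. The other hippocampus values ran from 0.19 to 0.91.

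*Mki67* had 2 probes above background in the hippocampus, which were not tested against each other. The brighter gave 7.60, 7.87 and 7.80 in WT and 7.61, 7.40 and 7.34 in *En2*-/- hippocampus, overlapping groups that differed by -0.31 (95% interval -0.69 to 0.08). The dimmer, A_51_P253808 (chr7:142886012-142886071, mm9), was above background on the 3 WT arrays (5.49, 5.31 and 5.38) and on no *En2*-/- array (4.54, 4.62 and 4.23). It was at least 1.61-fold lower (limma adjusted p = 0.0449) and was not called by the rank product (permutation P = 0.0107). It entered the test only through the WT arrays, on which it is brighter, so this p is no support for the difference.

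*Cdc20*, the gene that fell in the cerebellum, read 7.36, 7.50 and 7.69 in WT and 8.14, 7.87 and 8.10 in *En2*-/- hippocampus, which differed by 0.52 (SE 0.17, 95% interval 0.13 to 0.92) and did not pass (limma adjusted p = 0.168). *Dcx* read 8.93, 9.13 and 9.02 in WT and 8.30, 8.79 and 8.92 in *En2*-/- mice (-0.36, 95% interval -0.83 to 0.11). The rest differed by little. *Igfbpl1* differed by 0.17 (-0.57 to 0.91), *Ccnd2* by 0.07 (-0.45 to 0.58) and *Nes* by 0.03 (-0.38 to 0.43), with overlapping groups. *Eomes* and *Top2a* were too dim to be tested.

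Of 25 other G2 and mitosis genes tested in the hippocampus, 17 had a higher mean in *En2*-/- mice and 8 a lower one, with a median of 0.16 against 0.05 over all genes. The rank product and limma called 0, and 7 had an unadjusted limma p under 0.05. Over all genes the rank product called 4.16%, limma passed 1.33% and 19.5% had such an unadjusted p. Of 21 genes of G1 and S phase, 1 was called, *Ccnd1*, which fell by 1.60 (SE 0.25, limma adjusted p = 0.0346). The 18 stem and progenitor genes and the 19 neuroblast and immature neuron genes held 0 calls by either test, with 1 unadjusted limma p under 0.05 in each list and medians of -0.08 and -0.12.

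Markers of other cells moved with genotype in these hippocampus samples as well. Of 6 microglia genes 5 had a lower mean in *En2*-/- mice and 2 were called, *Cx3cr1* (-1.14, SE 0.29) and *C1qa* (-0.92, SE 0.23). The log2 of the list's summed intensity was 13.24 to 13.33 in *En2*-/- and 13.61 to 13.97 in WT hippocampus. Of 10 endothelial and mural genes 8 were lower and 3 were called, with *Cldn5*, a tight junction gene, at -1.07 (SE 0.23), and summed values of 14.41 to 14.62 against 14.68 to 14.99. All 8 choroid plexus genes had a lower mean and 3 were called, though the *En2*-/- arrays spread from 12.23 to 16.64 around the WT range of 14.64 to 15.96. Of 8 genes of the thalamus, which lies next to the hippocampus, 6 had a higher mean and 2 a lower one (median 0.86). *Tcf7l2* (1.39, SE 0.29) and *Zic4* (1.05, SE 0.28) were called higher, and the summed values were 13.67 to 14.24 against 13.11 to 13.38. Of 9 cerebellum markers tested 6 had a higher mean and 3 a lower one (median 0.15). Among them *Zic1* (1.24, SE 0.30) and *Cbln1* (1.10, SE 0.35) were called higher. Of 10 hippocampus markers 8 had a lower mean and 2 a higher one (median -0.25), and none was called by the rank product or limma. Over all genes the rank product called 4.16%. The microglia, endothelial and choroid plexus genes were all detected on every hippocampus array, and their part in the *Sox11* and *Sox4* differences was not tested.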

How the data were processed

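RNA of 12 samples was measured on one-colour Agilent arrays. The authors deposited the scanner intensity of each spot, background corrected within the array (Agilent Feature Extraction 10.7.3.1, linear scale), and a table of log2 values that they had filtered and quantile normalized. From the deposited intensities, 43379 spots per array that were not controls were taken, outlier spots (110 to 331 per array) were dropped, and log2 values were quantile normalized over the 12 arrays and averaged per probe. Gene names came from the annotation in the cerebellum files, brought to RefSeq symbols (GRCm38.p6). Of the gene names, 748 were kept as in the files.

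A gene entered a test if its brightest probe was flagged well above background throughout at least 1 of the groups compared (3 of 3 arrays) and kept 2 or more values in each group. Genotypes were compared in each tissue by the rank product (100 permutations, P under 0.01 in the cerebellum and 0.005 in the hippocampus, as in the study) and by limma 3.58.1 (R 4.3.3), tissues and the difference between tissues by limma over 4 groups, with Benjamini-Hochberg adjustment. The number of arrays limits the precision. With 3 against 3, an exact two-sided permutation test cannot go below 0.1. The labels do not say that arrays are separate animals, so p-values measure the spread between these samples. Alternatives were normexp (offset 50), scaling to the 75th percentile, quantiles within a tissue, the deposited log2 table, other filters, other probe rules, a percentage of false prediction under 0.05, a replicate block and leaving out each array. Between tissues of the same genotype, deviations of same-numbered arrays from their group means correlated between -0.264 and 0.302 (median 0.106). For arrays with different numbers these correlations ran from -0.355 to 0.237 (median -0.002). These ranges overlap and cannot decide whether same-numbered arrays share a mouse. The numbers were not taken to pair the samples, and the tests treated the arrays as independent except with the replicate block.

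The members and gene lists were chosen with earlier results of these data known. All 10 members and *En2* were named, and from each list up to 3 called genes per tissue and up to 2 genes of each sign between tissues. One listed gene, *Sp9*, has no probe here, and the values of another are not reported here. Scripts were tested on simulated data. Figures were drawn with matplotlib 3.10.9.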

Additional observations from a re-analysis of the deposited data

Results flagged for a closer look

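The genotype effect on *Cdc20* differed between the tissues, and the difference itself was tested. It fell in the cerebellum (log2 difference -1.83, SE 0.29) and was 0.52 (SE 0.17) in the hippocampus, and the cerebellum effect minus the hippocampus effect was -2.36 (SE 0.35, limma adjusted p = 0.0253). Every *En2*-/- array was below every WT array in the cerebellum and above every WT array in the hippocampus. With 3 arrays in a group, no array was tested as an outlier.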

How the results depend on the processing

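Of 129 counts of members and 768 member differences over all settings, 7 and 43 are the reported values, and 94 counts and 666 differences kept their direction and side of the threshold. The rank product called 2 members in the cerebellum, not 1, when every probe was tested (*Sox11* added) and with no filter on dim probes (*Igfbpl1* added), and 1 to 2 with arrays left out. In the hippocampus it called 1 with normexp, with the deposited log2 table and with every probe (*Sox11*), 1 with the 75th percentile (*Sox4*), 2 when all arrays had to be above background, and 0 to 1 with arrays left out. By limma the cerebellum count was 0 with every probe and with no filter, and 0 to 1 with arrays left out, and the hippocampus count was 2 with every probe (*Sox11* and *Mki67*). Between tissues the deposited table gave 5 members in WT and 4 in *En2*-/- mice, and leaving out arrays 7 to 9 and 5 to 7. In that table the median of all genes was 0.31 higher in WT cerebellum, against 0.07, and 4831 genes passed as higher and 1318 as lower, against 2695 and 2312. The 75th percentile moved the median of the genotype effect between tissues from -0.09 to -0.21. The difference between tissues passed for 0 members with no filter and for 0 to 1 with arrays left out.

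With the replicate number, which is the slide, as a block, the rank product and limma called 1 member in the cerebellum (*Cdc20*), both called 0 in the hippocampus, limma passed 8 and 7 members between tissues, and 1 for the difference between tissues. Over all genes in the hippocampus the limma count was 68 with the block, against 197, and the rank product count 516, against 618.

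Small differences that passed no test turned sign. *Dcx* in the cerebellum was -0.18 with the mean of its probes and 0 with normexp, and its genotype effect between tissues -0.12 with the mean. *Sox11* in the cerebellum was 0.28 with the mean of its probes, *Nes* in the hippocampus -0.01 with the 75th percentile, and *Nes* between tissues in *En2*-/- mice 0.22 in the deposited table. With arrays left out, cerebellum differences ranged from -0.48 to 0.13 (*Ccnd2*), -0.14 to 0.11 (*Dcx*), -0.34 to 0.25 (*Eomes*), -0.45 to 0.07 (*Mki67*), -0.33 to 0.06 (*Sox11*) and -0.04 to 0.64 (*Sox4*), hippocampus differences from -0.11 to 0.22 (*Ccnd2*), -0.11 to 0.41 (*Igfbpl1*) and -0.10 to 0.10 (*Nes*), the effects between tissues from -0.55 to 0.06 (*Ccnd2*), -0.40 to 0.73 (*Eomes*) and -0.14 to 0.38 (*Mki67*), and *Sox4* between tissues in *En2*-/- mice from -0.04 to 0.33. The causes of these changes were not tested. Dim probes limit *Top2a*, *Igfbpl1* and *Eomes*.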
